A study of Mus musculus with 4 samples.

Results

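Cadherins join neighbouring cells, and a fixed set of transcription factors can change which cadherin a cell makes. The 10 genes described here are 3 classical cadherins (Cdh1, Cdh2 and Cdh3), 5 transcription factors of epithelial-mesenchymal transition (EMT; Snai1, Snai2, Zeb1, Zeb2 and Twist1) and 2 genes commonly read as mesenchymal markers (Vim and Fn1). They were read through every probe set whose only annotated gene symbol is one of these 10, which gave 23 of the 45037 probe sets of the series. Cdh1, Snai1 and Twist1 had 1 probe set each and the other 7 genes had several. The genes were chosen by their roles in EMT with the values of this same comparison already known. Their own differences are therefore given as a description, with no p-value for any one of them, and counts of them past a threshold are printed beside the share of all probe sets only for completeness.

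The cells were E14, a mouse embryonic stem (mES) cell line, grown in serum with leukaemia inhibitory factor (LIF). Of 4 Affymetrix arrays, 2 were hybridised with RNA of cells transfected with a plasmid for an shRNA against Zfp322a (Zfp322a RNAi). The other 2 took RNA of cells transfected with a control plasmid (control RNAi). The study's array methods describe a control shRNA, while its qPCR comparisons name the empty pSuper.puro vector. Puromycin selection lasted 3 days according to the labels, while the study's array methods give a longer selection. The knock-down was transient, so that remaining Zfp322a mRNA is part of the model, and whether the 2 samples of a group were separate cultures is not stated in the labels. Any p-value below therefore takes in only how these samples vary, and that variation can be technical.

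In epithelia and in mES cells, E-cadherin (the product of Cdh1) binds E-cadherin of the next cell and is anchored to actin through catenins. During gastrulation and in wounds and tumours, SNAI, ZEB and TWIST factors can repress Cdh1 by binding E-boxes, while N-cadherin (Cdh2), vimentin and fibronectin increase, and this exchange is called the cadherin switch. E-cadherin is the cadherin known for holding mES cells in compact colonies.

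The depleted gene was checked first, and the values below are log2 RMA values, on which a difference of 1 is a 2-fold difference. The study's oligonucleotide table gives a pair of shRNAs against Zfp322a, and which of them was used for the arrays is not stated in the sources used here. Their target sequences are shown because they define the perturbation.
Zfp322a shRNA-1: acagaggagctccattata
Zfp322a shRNA-2: acttagcacgaatgtgtga

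The brighter Zfp322a probe set read 7.53 and 7.13 on the Zfp322a RNAi arrays, against 8.75 and 8.84 on the control arrays. The other read 7.08 and 6.89 on the Zfp322a RNAi arrays, against 8.82 and 8.89 on the control arrays. Both fell, to 36.2% and 27.4% of the control level (change -1.47 ± 0.14 and -1.87 ± 0.09, SE, n = 2 arrays per group, adjusted p = 0.00220 and 9.35e-04 with limma over all probe sets). Array medians were 6.07 and 6.08 for Zfp322a RNAi and at most 6.11 for control RNAi. Arrays of 1 group correlated at 0.998 over all probe sets, and arrays of different groups at 0.989 to 0.990.

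N-cadherin mRNA was much higher after Zfp322a depletion, while E-cadherin mRNA was not lower. The brighter Cdh2 probe set gave 7.94 and 7.69 in Zfp322a RNAi cells, against 6.16 and 5.85 in control cells. The difference was 1.81 ± 0.14 on the log2 scale (SE, n = 2 arrays per group), or 3.51-fold. The second Cdh2 probe set gave 7.21 and 7.09 in Zfp322a RNAi cells, against 5.25 and 5.77 in control cells. Its difference was 1.64 ± 0.17, or 3.12-fold, so that 2 separate groups of probes for this gene gave nearly the same size. On both, the Zfp322a RNAi arrays lay well above both control arrays, and with any 1 array left out the differences lay between 1.66 and 1.97 for the brighter probe set and between 1.38 and 1.90 for the other. Among all probe sets, the change of the brighter one ranked at the 99.9th percentile. In RNA from whole cultures, more Cdh2 mRNA per cell and a larger share of cells that contain it cannot be told apart.

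Cdh1, the E-cadherin gene, gave 12.27 and 12.14 in Zfp322a RNAi cells, against 12.10 and 11.97 in control cells. Its single probe set is among the brightest of the array (98.2th percentile of the mean level). The Zfp322a RNAi arrays lay above both control arrays, by a mean of 0.17 ± 0.09 (SE, n = 2 arrays per group, 1.13-fold). With any 1 array left out the difference lay between 0.11 and 0.24. Its direction could not change in this way, since the groups did not overlap. E-cadherin protein was not measured on these arrays.

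Set within each array, Cdh2 minus Cdh1 on the brightest probe sets was -4.33 and -4.45 in Zfp322a RNAi cells, against -5.94 and -6.12 in control cells. The mean was -4.39 ± 0.09 with Zfp322a RNAi and -6.03 ± 0.13 in controls (SD, n = 2), which is a shift of 1.64 toward Cdh2 (3.12-fold). The sign of these values carries no meaning, since different probe sets have different brightness, and only the shift between groups can be read. With 1 array left out it lay between 1.55 and 1.73.

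Cdh3 encodes P-cadherin, a classical cadherin of placenta and skin. Its brighter probe set gave 7.13 and 7.08 in Zfp322a RNAi cells, against 6.98 and 6.93 in control cells (difference 0.15 ± 0.08, SE, n = 2 arrays per group). The groups did not overlap, but the difference was small, and the dim second probe set gave 4.14 and 4.27 in Zfp322a RNAi cells, against 4.25 and 4.11 in control cells, where the arrays overlapped. Cdh2 was thus the only one of the 3 cadherins whose probe sets met the 1.5-fold threshold that the study's methods name.

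**Figure D1:**
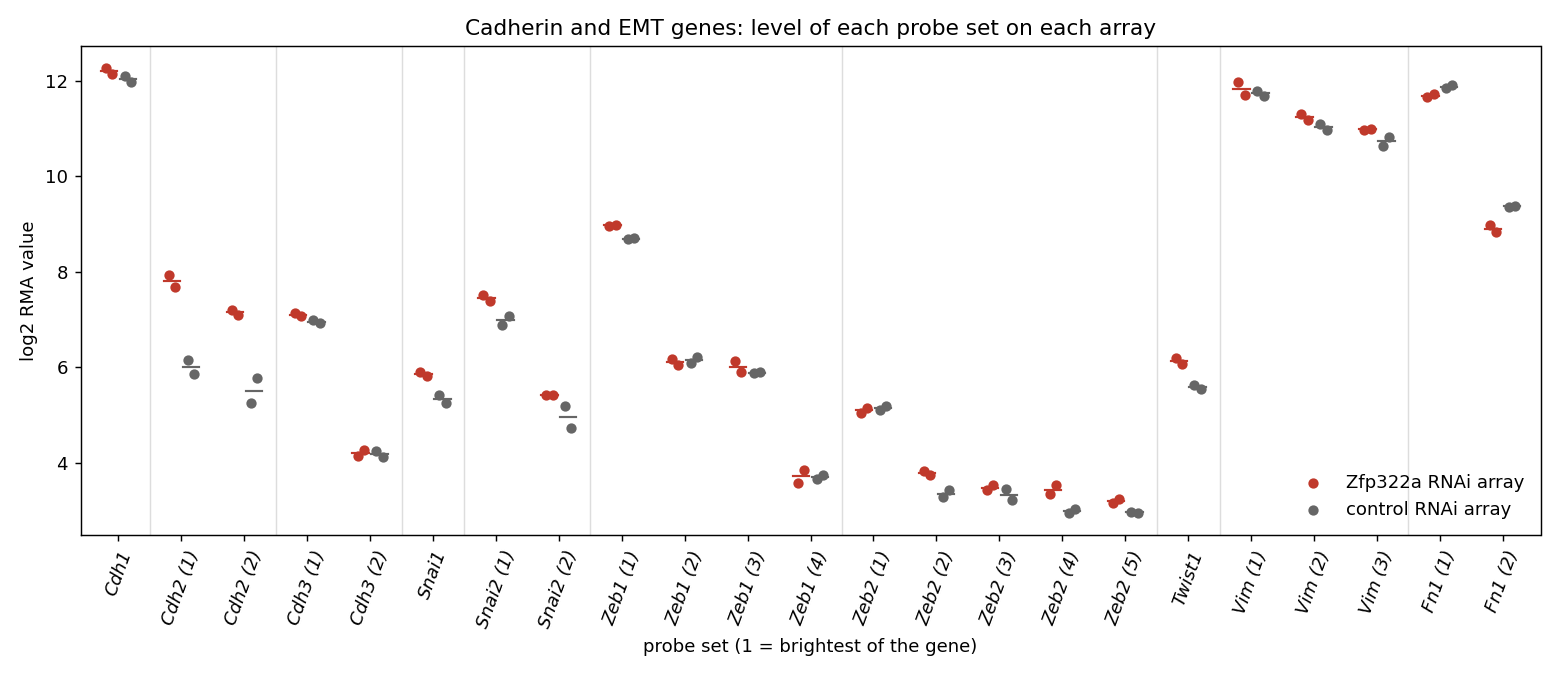
Log2 RMA value (y axis) of each of the 23 cadherin and EMT probe sets (x axis, numbered from the brightest within a gene). Red points are the 2 Zfp322a RNAi arrays, grey points the 2 control RNAi arrays and short lines the group means. Cdh2 shows the widest gap, 7.82 against 6.01 on its brighter probe set, and Cdh1 lies above 11.9 on every array.

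The SNAI factors are zinc finger repressors that bind E-boxes of the Cdh1 promoter. Snai1 gave 5.91 and 5.82 in Zfp322a RNAi cells, against 5.41 and 5.26 in control cells, a difference of 0.53 ± 0.09 (SE, n = 2 arrays per group, 1.44-fold). Snai2 had 2 probe sets. The brighter one gave 7.52 and 7.38 in Zfp322a RNAi cells, against 6.89 and 7.07 in control cells (0.47 ± 0.10). Its identifier marks it as open to cross-hybridization, and the platform annotation pairs it with no transcript accession. The dimmer one, paired with a RefSeq transcript of Snai2, gave 5.41 and 5.42 in Zfp322a RNAi cells, against 5.19 and 4.72 in control cells (0.46 ± 0.15). Both agreed in size, but the control arrays of the dimmer one stood 0.47 apart, and without 1 array its difference ranged from 0.23 to 0.70. On the 3 probe sets of Snai1 and Snai2, both Zfp322a RNAi arrays lay above both control arrays. The same held for 25.1% of all probe sets, and nothing is read from this count.

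Twist1, a basic helix-loop-helix factor that drives EMT in mesoderm and neural crest, gave 6.19 and 6.07 in Zfp322a RNAi cells, against 5.63 and 5.54 in control cells. The difference was 0.55 ± 0.09 (SE, n = 2 arrays per group, 1.46-fold), close to that of Snai1. Snai1 and Twist1 have dim probe sets (41.6th and 46.0th percentile of the mean level), and the values used here come with no call of presence or absence.

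The ZEB factors are repressors with a zinc finger cluster at each end, and Zeb2 is also called Sip1. The brightest of 4 Zeb1 probe sets gave 8.97 and 8.99 in Zfp322a RNAi cells, against 8.68 and 8.71 in control cells, a difference of 0.29 ± 0.08 (SE, n = 2 arrays per group, 1.22-fold). The other Zeb1 probe sets overlapped between groups, with differences of -0.04, 0.13 and 0.02, and the mean of all Zeb1 probe sets differed by 0.10. The higher value of Zeb1 thus rests on 1 probe set, the only one of the 4 that the annotation pairs with a RefSeq transcript.

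Zeb2 was read by 5 dim probe sets. The brightest gave 5.04 and 5.15 in Zfp322a RNAi cells, against 5.10 and 5.19 in control cells, which overlapped. The next, paired with a RefSeq transcript of Zeb2, gave 3.82 and 3.74 in Zfp322a RNAi cells, against 3.28 and 3.42 in control cells (0.43 ± 0.09, SE, n = 2 arrays per group). A further one gave 3.34 and 3.53 in Zfp322a RNAi cells, against 2.95 and 3.02 in control cells (0.45 ± 0.09), and the other two differed by 0.15 and 0.23. These 4 probe sets lay between the 0.742th and the 6.57th percentile of level, near the lowest values on the arrays. No statement on the presence of Zeb2 mRNA is drawn from values so low.

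**Figure D2:**
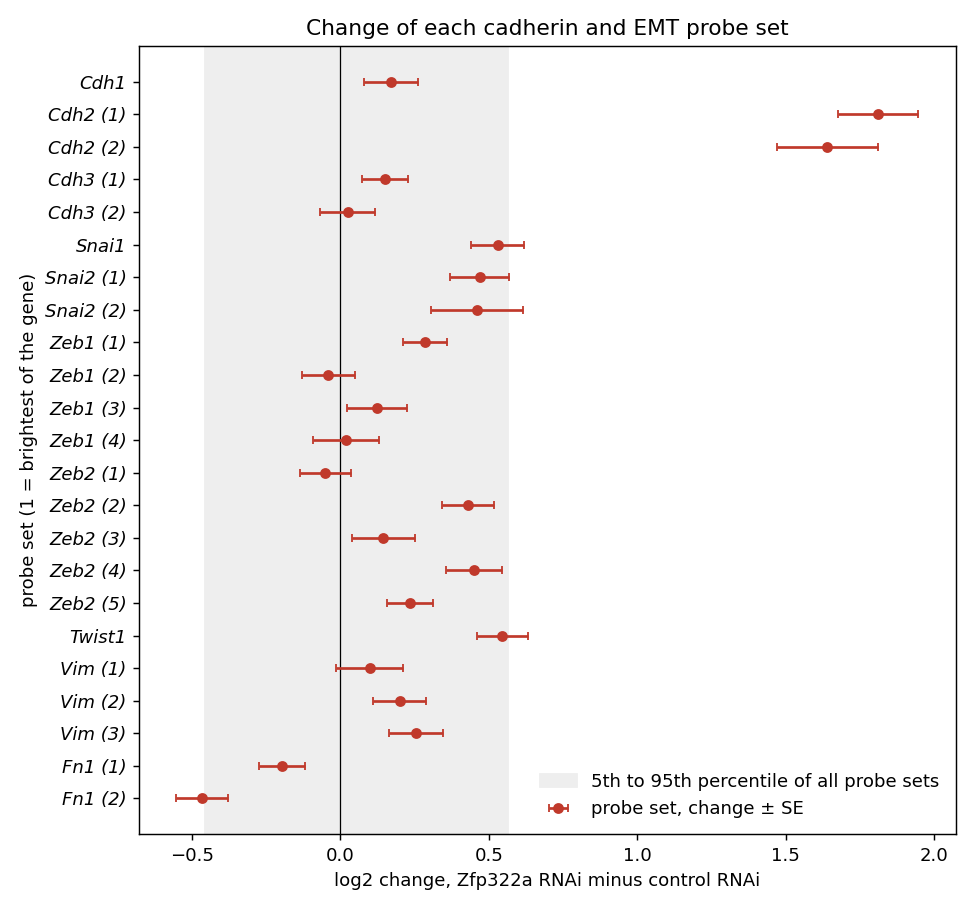
Log2 change of each of the 23 probe sets (x axis, Zfp322a RNAi minus control RNAi, points with the limma SE as bars; y axis, probe sets numbered from the brightest within a gene). The grey band holds the 5th to 95th percentile of all probe sets, from -0.46 to 0.57: Cdh2 lies at 1.81 and 1.64, Snai1 and Twist1 lie at 0.53 and 0.55, inside the band, and the dimmer Fn1 probe set lies at -0.47.

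Promoter sequence was available in the RefSeq promoter table (GRCm38.p6) for 4 of the 10 genes, Snai1, Twist1, Vim and Zeb2. Each window runs from 250 bases before to 50 bases after a transcript start. The windows of the 2 transcription factor genes with the higher level are printed with that of Vim, which differed less. SNAI and ZEB proteins bind the E-box CAGGTG, which reads CACCTG on the other strand. Matches on either strand are in capitals.
Snai1 promoter, chr2:167537945-167538244 (+ strand): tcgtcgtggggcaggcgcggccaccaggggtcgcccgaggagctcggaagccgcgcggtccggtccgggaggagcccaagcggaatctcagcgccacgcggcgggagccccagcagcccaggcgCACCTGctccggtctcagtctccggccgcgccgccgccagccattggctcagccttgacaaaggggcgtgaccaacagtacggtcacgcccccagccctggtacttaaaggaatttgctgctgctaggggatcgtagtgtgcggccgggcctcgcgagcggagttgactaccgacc
Twist1 promoter, chr12:33957421-33957720 (+ strand): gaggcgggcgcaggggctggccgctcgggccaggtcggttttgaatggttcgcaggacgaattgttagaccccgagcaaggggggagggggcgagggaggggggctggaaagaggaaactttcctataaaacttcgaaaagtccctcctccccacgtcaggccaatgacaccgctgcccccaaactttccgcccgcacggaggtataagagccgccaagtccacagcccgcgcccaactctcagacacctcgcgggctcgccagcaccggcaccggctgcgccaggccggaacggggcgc
Vim promoter, chr2:13574061-13574360 (+ strand): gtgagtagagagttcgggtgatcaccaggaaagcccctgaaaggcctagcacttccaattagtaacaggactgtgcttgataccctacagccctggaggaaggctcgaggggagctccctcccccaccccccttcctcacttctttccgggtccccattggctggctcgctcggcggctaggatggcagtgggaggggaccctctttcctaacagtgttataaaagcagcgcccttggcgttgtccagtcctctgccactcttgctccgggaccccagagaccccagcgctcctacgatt

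The Snai1 window held 1 match and the Twist1 and Vim windows none, and none was found in the 4 windows of Zeb2. Of 32851 promoter windows of the same length, 20.2% held at least 1 match, against 1 of the 7 windows of these genes, too few to compare. The wider E-box CANNTG, which contains the first motif, occurred 1 time in the Snai1 window, at that same place, and in 72.3% of all windows. These are matches of letters and say nothing about binding in these cells.

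Of the mesenchymal markers, Vim gave small positive differences and Fn1 was lower. Vim encodes the intermediate filament protein vimentin, which mES cells in serum also make. Its 3 probe sets gave 11.98 and 11.70, 11.30 and 11.18, and 10.98 and 11 in Zfp322a RNAi cells, against 11.79 and 11.69, 11.10 and 10.98, and 10.64 and 10.83 in control cells. The differences were 0.10 ± 0.11, 0.20 ± 0.09 and 0.26 ± 0.09 (SE, n = 2 arrays per group). The arrays overlapped on the brightest probe set, which is open to cross-hybridization, and did not on the other two.

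Fn1 encodes fibronectin, a matrix protein that is high in mesenchyme and parietal endoderm. The brighter probe set gave 11.66 and 11.72 in Zfp322a RNAi cells, against 11.86 and 11.91 in control cells (-0.20 ± 0.08, SE, n = 2 arrays per group). The second gave 8.98 and 8.83 in Zfp322a RNAi cells, against 9.36 and 9.38 in control cells (-0.47 ± 0.09, 72.5% of control). On both, the Zfp322a RNAi arrays lay below both control arrays, and the mean of the probe sets differed by -0.33.

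Over the 23 probe sets, the mean was higher in Zfp322a RNAi cells for 19 and lower for 4. The median difference was 0.20, where that of all probe sets was -0.03. Both Zfp322a RNAi arrays exceeded both control arrays for 14 probe sets (25.1% of all probe sets did so), lay below both for 2 (32.4% of all did so), and overlapped with them for 7. A change of at least 1.5-fold, the threshold in the study's methods and applied there without a test, was met by 2 of 23, both of Cdh2 (7.31% of all probe sets met it). With limma and an adjusted p of 0.05 over all probe sets, 9 of 23 passed, 8 higher and 1 lower, where 20.1% of all probe sets passed, 10.6% higher and 9.47% lower. Since the genes were taken up with this comparison in view, nothing is read from these counts or from which probe sets passed.

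**Figure D3:**
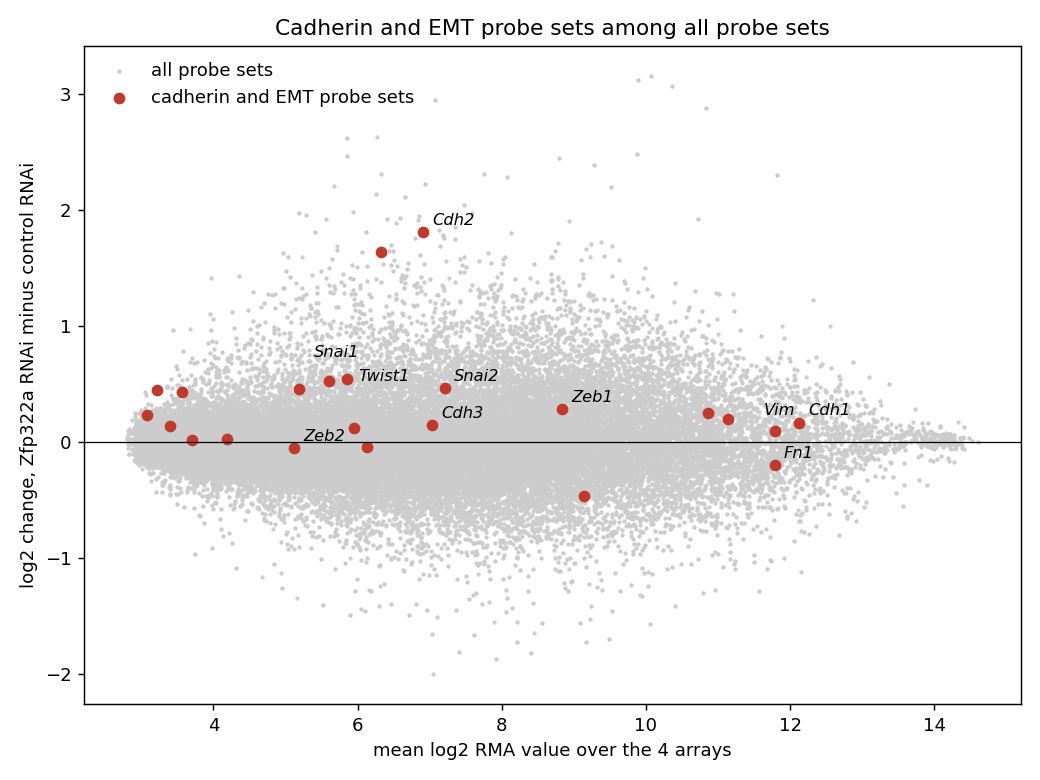
All 45037 probe sets (grey) are placed by level, the log2 RMA value averaged over 4 arrays (x axis), and by difference, Zfp322a RNAi minus control RNAi in log2 units (y axis). In red are the 23 cadherin and EMT probe sets, with the brightest of each gene named: Cdh2 stands at 1.81 among the highest changes, and Cdh1, Vim and Fn1 lie between -0.20 and 0.17 at the bright end.

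The genes with the profile most like that of Cdh2, by Euclidean distance over the 4 arrays after the control mean was subtracted, were Ttc30b (distance 0.07, change 1.77), Cpeb2 (0.07, 1.83) and Slc35a5 (0.08, 1.81). Those nearest to Cdh1 were Nt5m (0.02, 0.18), Mrpl50 (0.03, 0.17) and H2-Ea (0.03, 0.18). With 4 arrays in 2 groups, a small distance means mainly a change of the same size.

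Other genes that act with cadherins and EMT factors were read from lists, each gene by its brightest probe set with calls adjusted over all probe sets. Of all 18193 genes read in this way, 12.2% passed higher and 11.5% lower, and their median change was -0.04. Some values of these lists were also known before the lists were written.

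Genes of the cadherin complex went both ways. The catenins anchor cadherins, and nectins and afadin build the same junctions. On the arrays were 18 of them, of which 3 rose, 6 fell and 9 did not pass, with a median change of -0.10. The largest falls were those of Nectin2, a nectin (-0.60 ± 0.09, adjusted p = 0.00670 with limma), and Iqgap1, a scaffold that binds beta-catenin and E-cadherin (-0.40 ± 0.08, adjusted p = 0.0199 with limma). The largest rises were those of Ptpn14 (0.48 ± 0.10, adjusted p = 0.0214 with limma), a phosphatase found at adherens junctions, and Rap1a (0.43 ± 0.08, adjusted p = 0.0169 with limma), a small GTPase that promotes cadherin adhesion. The calls of Ptpn14 and Rap1a ended with the mean over a gene's probe sets (0.26 and 0.20). Singled out after their values were seen, alpha-catenin, Ctnna1, fell (-0.40 ± 0.09, adjusted p = 0.0304 with limma), while beta-catenin, Ctnnb1, gave 13.21 and 13.24 in Zfp322a RNAi cells, against 13.20 and 13.15 in control cells and did not pass on this probe set, while 1 of its other two passed as higher.

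Among other cadherins, 1 of 18 measured rose and 17 did not pass the test, with a median change of 0.02. The one was Cdh9, a type II cadherin of neurons and kidney, which gave 5.24 and 5.38 in Zfp322a RNAi cells, against 4.80 and 4.87 in control cells (0.48 ± 0.09, adjusted p = 0.0141 with limma). Most of these genes are dim in mES cells, and 16 of 18 lay below the median level of all probe sets.

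Epithelial genes other than Cdh1 were lower more often than higher. Of 35 measured, 2 rose, 14 fell and 19 were not called, and the median change was -0.21. The tight junction genes Cldn7 (5.98 and 6.19 in Zfp322a RNAi cells, against 7.19 and 7.18 in control cells) and Cldn4 (8.39 and 8.31 in Zfp322a RNAi cells, against 9.40 and 9.38 in control cells) fell furthest. Their changes were -1.10 ± 0.10 and -1.04 ± 0.08 (adjusted p = 0.00183 and 0.00146 with limma). Perp, a desmosome component and p53 target, rose (0.62 ± 0.09, adjusted p = 0.00620 with limma), as did the occludin gene Ocln (0.54 ± 0.11, adjusted p = 0.0181 with limma), whose call ended with the mean of its probe sets (0.22). Singled out after their values were seen, the desmosomal genes Pkp2 (-0.89 ± 0.09) and Dsg2 (-0.62 ± 0.11), the protease inhibitor gene Spint1 (-0.71 ± 0.09) and Grhl2, an activator of Cdh1 (-0.62 ± 0.13 on 1 of its 4 probe sets that passed), fell as well (adjusted p between 0.00231 and 0.0210 with limma). Related genes of the list did not all follow. Pkp3 fell (-0.41), but the desmosomal genes Dsp (0.18) and Dsc2 (0.075) were not called. Neither were Spint2 (-0.055), Grhl1 (0.225) and Grhl3 (-0.06).

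EMT factors outside the 5 described above showed no shared direction. Of 18 measured, 2 rose, 3 fell and 13 were not called, with a median change of 0.03. Hmga2, a chromatin factor that activates Snai1 (0.79 ± 0.08, adjusted p = 0.00248 with limma), and Foxc1 (0.41 ± 0.08, adjusted p = 0.0201 with limma) rose. Eomes, which drives EMT at the primitive streak (-0.90 ± 0.08, adjusted p = 0.00190 with limma), and Snai3, the third SNAI gene (-0.58 ± 0.10, adjusted p = 0.0128 with limma), fell. Snai3 gave 6.98 and 7.21 in Zfp322a RNAi cells, against 7.63 and 7.71 in control cells, opposite in direction to Snai1 and Snai2. With the mean over a gene's probe sets, Snai3 and Foxc1 differed by -0.34 and 0.23.

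Cofactors of SNAI and ZEB, and the ligases that degrade them, were read as 1 list although they act in opposite ways. Its genes more often passed as higher than as lower. Of 23 measured, 7 rose, 2 fell and 14 were not called, with a median change of 0.05. Among the 23 is Loxl3, which was read in place of the listed Loxl2 through a synonym and was not called. The largest rise was that of Ajuba, a LIM protein that SNAI proteins recruit in repression, which gave 11.03 and 10.96 in Zfp322a RNAi cells, against 9.78 and 9.79 in control cells (1.21 ± 0.08, adjusted p = 0.00108 with limma). Rcor1, the CoREST scaffold, rose (0.84 ± 0.09, adjusted p = 0.00309 with limma). Its partner Kdm1a, the demethylase LSD1, fell (-0.33 ± 0.08, adjusted p = 0.0289 with limma), as did Gsk3b, a kinase that marks SNAI1 for degradation (-0.41 ± 0.10, adjusted p = 0.0353 with limma). Of 6 Gsk3b probe sets, 3 passed as lower and 1 as higher. The call of Gsk3b ended with the mean of its probe sets (-0.15), and that of Rcor1 without probe sets that can cross-hybridize (0.32). Singled out after their values were seen, the ligase genes Fbxo11 (0.655 ± 0.10), Siah1a (0.595 ± 0.08) and Siah2 (0.48 ± 0.08) also rose (adjusted p between 0.00553 and 0.00882 with limma). So did the cofactor genes Ctbp1 (0.30) and Hdac2 (0.41). The ligase genes Btrc, Fbxw11, Fbxl14, Fbxl5 and Fbxo45 were not called.

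Mesenchymal effectors, the matrix and cytoskeletal genes that EMT usually raises, went both ways. Of 28 measured, 4 rose, 5 fell and 19 were not called, with a median change of -0.002. Tgfbi (0.97 ± 0.08, adjusted p = 0.00161 with limma) and Ccn2 (0.97 ± 0.08, adjusted p = 0.00155 with limma), both matrix genes induced by TGF-beta, rose. Mmp2, a gelatinase (-0.99 ± 0.08, adjusted p = 0.00167 with limma), and Tpm2, a tropomyosin (-0.67 ± 0.08, adjusted p = 0.00400 with limma), fell. Averaged over its probe sets, Tpm2 differed by -0.37.

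Of 18 TGF-beta ligands, receptors and SMADs, whose signal induces SNAI and ZEB genes in epithelia, 6 rose, 3 fell and 9 were not called, with a median change of 0.10. The receptor gene Tgfbr1 (0.58 ± 0.08, adjusted p = 0.00533 with limma) rose and its partner Tgfbr2 (-0.60 ± 0.08, adjusted p = 0.00508 with limma) fell. Smad2 (0.54 ± 0.09, adjusted p = 0.00959 with limma) rose and Smad3 (-0.51 ± 0.08, adjusted p = 0.00697 with limma) fell, but both calls ended when a gene's probe sets were averaged (0.10 and -0.21), and a further probe set of Smad2 passed in the other direction. With that setting, Tgfbr1 and Tgfbr2 differed by 0.32 and -0.26.

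**Figure D4:**
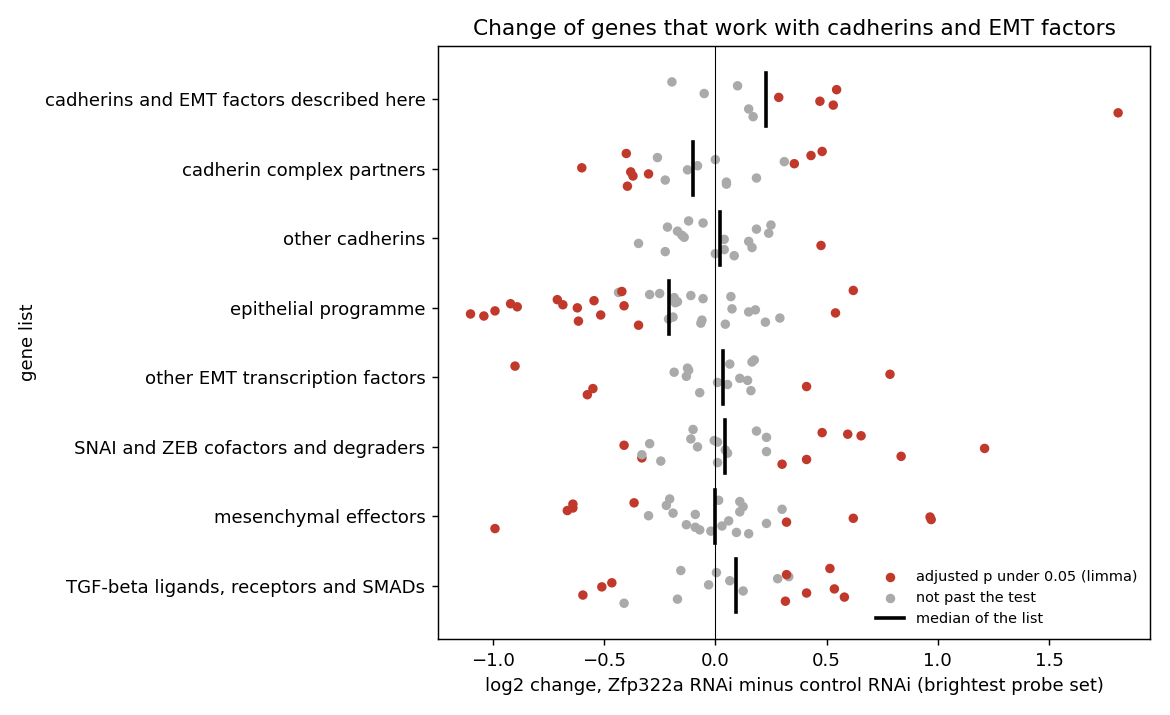
Log2 change (x axis, Zfp322a RNAi minus control RNAi, brightest probe set) of each gene, by list (y axis). Red points passed an adjusted p of 0.05 with limma, grey points did not, and black lines are list medians: the epithelial programme lies lowest at -0.21, with 14 of 35 genes lower, and Cdh2 is the point at 1.81 in the top row. Nothing is read from the colours of the top row, whose genes were chosen with this comparison known.

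Cadherins and EMT factors mark several cell types, so markers of some types were read on the same arrays. No list of trophoblast markers was read, although the paper reports a rise of the trophectoderm marker Cdx2 by qPCR. Of 12 fibroblast markers, 0 rose and 2 fell, and 8 lay below the median level of all probe sets. Their summed level on the linear scale was 777 to 794 in Zfp322a RNAi cells, against 935 to 974 in control cells. Of 12 primitive and parietal endoderm markers, 5 rose and 0 fell, with Gata6 (1.42 ± 0.08) and Pdgfra (0.73 ± 0.11) first, and the sum was 3356 to 3511 in Zfp322a RNAi cells, against 3392 to 3429 in control cells. Of 8 primed epiblast markers, 2 rose and 0 fell (Zic2, 1.36 ± 0.23, and Sox3, 0.83 ± 0.09; sum 2956 to 2990 in Zfp322a RNAi cells, against 3030 to 3080 in control cells). Of 8 neural progenitor markers, 3 rose and 0 fell, led by Meis2 (0.99 ± 0.14) and Zic1 (0.68 ± 0.11), with a sum of 964 to 1013 in Zfp322a RNAi cells, against 748 to 768 in control cells. Of 8 primitive streak and mesoderm markers, 0 rose and 1, Eomes, fell, with a sum of 450 to 494 in Zfp322a RNAi cells, against 605 to 623 in control cells. Of 10 ES cell markers, 0 rose and 3 fell, namely Utf1, Tdgf1 and Esrrb. The sum of the 10 was 65760 to 65960 in Zfp322a RNAi cells, against 70790 to 72410 in control cells. Pou5f1 (-0.055), Nanog (-0.025), Sox2 (0.015) and Zfp42 (0.06) hardly differed and were not called. The paper, in contrast, reports lower mRNA of these genes by qPCR and less of their proteins. Of markers that its qPCR found higher, Gata6, Foxa2 and Sox17 passed as higher here, while Fgf5 (0.035) and Hand1 (-0.03) were not called. The cause of these differences between methods was not tested. Of the endoderm, epiblast and neural markers, 7 of 12, 6 of 8 and 5 of 8 were not called. Gata6 passed as higher on 2 of 3 probe sets, Pdgfra on 1 of 3, and Sox3 and Zic1 on 1 of 2 each. Meis2 passed on 4 of 4 probe sets, and Zic2 has a single probe set. As lower, Utf1 passed on 2 of 3 probe sets, Esrrb on 1 of 3 and Tdgf1 on its single one. Some genes that were not called passed on other probe sets. Pax6 did so as higher on 2 of 5, and as lower did Klf4 on 1 of 2, Dnmt3b on 1 of 2 and Lamb1 on 1 of 4. Some endoderm, epiblast and neural markers were thus higher on the arrays where Cdh2, Snai1, Snai2 and Twist1 were higher, and 0 of the fibroblast markers rose. The part of any such cells in the values of Cdh2 and the EMT factors was not tested.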

How the data were processed

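Total RNA of E14 mES cells was hybridised to 1-colour Affymetrix mouse arrays, 2 Zfp322a RNAi and 2 control RNAi. The authors computed RMA values (background correction, quantile normalization, probe set summary; version not given in the sources used here), deposited on the log2 scale to 2 decimals; the values show the log2 scale, 2.62 to 14.6, while centring is unstated. They were used as deposited. A change of all genes in 1 direction would not appear in quantile-normalized values, and the number of arrays limits the precision.

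Groups and replicate numbers came from sample titles. The platform annotation gives 34945 probe sets 1 symbol, 932 several and 9160 none; only the first were named, 34741 of them with the current RefSeq symbol (GRCm38.p6). Groups were compared with limma 3.58.1 in R 4.3.3 (two-sided, 1 coefficient for group, residual df 2), with Benjamini-Hochberg adjustment over all 45037 probe sets and a threshold of 0.05. An exact permutation test of 1 probe set could not go below 0.333. The study's 1.5-fold rule was applied without a test. The fit was checked on simulated data.

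The members and lists were chosen with earlier results of these data known. Named are all members, Zfp322a, up to 2 rises and 2 falls with the largest change among called genes of each list, and the 3 genes nearest to Cdh1 and Cdh2; others are said to be singled out. Alternatives were array centring, quantile normalization, dim probe sets left out, a variance trend, a replicate block, each array left out, 1 probe set per gene, the mean of all probe sets, and leaving out probe sets that can cross-hybridize. Listed genes without a single-symbol probe set were not analysed here, except that Loxl3 was read for Loxl2.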

Additional observations from a re-analysis of the deposited data

How the results depend on the processing

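The difference of Cdh2 kept its direction and stayed within 1.5 times of its value under the 12 alternatives run for it (1.66 to 1.97), as did that of Cdh2 minus Cdh1 under 11 (1.55 to 1.73), for which the mean of all probe sets was not run. The differences of Snai1 (0.46 to 0.61) and Twist1 (0.49 to 0.61) did so under 11 alternatives, since leaving out dim probe sets removed both, and that of Snai2 (0.38 to 0.56) under 12. Cdh1 ranged from 0.11 to 0.24, Cdh3 from 0.09 to 0.18, Zeb1 from 0.10 to 0.32, Zeb2 from -0.11 to 0.24, Vim from -0.04 to 0.24 and Fn1 from -0.33 to -0.17, on the brightest probe set or the mean of all. The variance trend, the replicate block and 1 probe set per gene cannot change such a difference, and neither can leaving out other probe sets. Where the arrays of the groups do not overlap, leaving out 1 array can change its size but not its direction. For Cdh2, only array centring, quantile normalization, the mean of all probe sets and 1 array left out could thus move the value. Only Cdh2 passed the study's fold rule.

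Counts of calls rest on all 4 arrays. Without any 1 array, 0 probe sets passed the adjusted p with limma (0 to 0 over the 4 fits, for the 23 probe sets described and for each list too), while 10572 to 11509 of all and 9 to 11 of the 23 had an unadjusted p under 0.05. With the replicate number as a block, 0 passed as well, with 13586 of all and 13 of the 23 under an unadjusted p of 0.05, and the fall of Zfp322a (-1.47) then had an adjusted p = 0.0523 with limma. Deviations of samples with the same number correlated at 0.0561, and the block leaves 1 degree of freedom. Whether samples with the same number share a day or batch is not stated in the labels, and this correlation cannot settle it. Without 1 array the fall of Zfp322a lay between -1.67 and -1.27 (adjusted p between 0.110 and 0.145 with limma).

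With 1 probe set per gene, 5163 genes passed, 5 of the 10 described among them. At 1.5-fold without a test, 3294 probe sets and 2 of the 23 passed. With a variance trend, 11989 of all 45037 probe sets passed, with 14 of the 23 and 14 of the 23 SNAI and ZEB cofactors and degraders among them. With dim probe sets left out, 10237 of the 22508 retained passed, with 7 of 12 probe sets of the genes described, 15 of 22 of these cofactors and 0 of 2 other cadherins among them. Nothing is read from the counts of the genes described, which were chosen with this comparison known. The cause of these differences was not tested, apart from the smaller number of features or arrays in some fits. Dim probe sets limit what can be read of Zeb2, Snai1, Twist1 and most other cadherins.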
